A study of Homo sapiens with 8 samples.

Results

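The genes described here are 39 that encode proteins of the core splicing machinery: the Sm ring proteins, the proteins of the U1 and U2 small nuclear ribonucleoproteins (snRNPs), the SF3a, SF3b and U2AF factors, the U4/U6.U5 tri-snRNP proteins, the Prp19 complex and 3 helicases. They were listed by name, and no measured value entered the rule. Spliced reads could be tested for 37 of the 39, among 13496 genes tested and 21658 genes with a spliced read. HEK293, an established human embryonic kidney cell line, had been treated either with 25 nM LMI070 (branaplam) or with DMSO, the solvent. Each treatment had 4 libraries, which the labels number 9 to 12 for DMSO and 13 to 16 for LMI070. Total RNA was depleted of ribosomal RNA, and the values are reads that cross splice junctions. DMSO 9 and 10 and LMI070 14 and 15 were run in lane 8, and DMSO 11 and 12 and LMI070 13 and 16 in lane 7. The labels give no duration of treatment and do not say whether libraries came from separate cultures, so p-values measure only the spread between these libraries.

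The spliceosome removes introns in steps. U1 snRNP pairs with the 5′ splice site, U2AF and U2 snRNP (with SF3a and SF3b) mark the 3′ splice site and the branch point, and the tri-snRNP then joins, after which helicases and the Prp19 complex drive the rearrangements to the active enzyme. LMI070 belongs to a class of compounds that strengthen the pairing of U1 snRNP with selected 5′ splice sites, in particular at exons that end in GA. The genes here thus encode the machine that the compound acts on, and their own transcripts are its substrates too.

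Depth was 20369466 to 36131054 uniquely mapped junction reads per library, with LMI070 13 the deepest. Multidimensional scaling, on the tested genes that differed most between each pair of libraries, set DMSO 12 and LMI070 16 apart. DMSO 12 lay at -0.69 on the second axis and LMI070 16 at -0.81 on the first. The rest lay between -0.17 and 0.33 on the second axis and between -0.15 and 0.26 on the first. Summed spliced reads of 8 HEK293 identity genes were 104 to 111 CPM (counts scaled to library size) in DMSO and 109 to 114 in LMI070. Markers of blood, epithelium and hepatocytes summed to under 1 CPM in each library, with HBB and SERPINA1 at 0 throughout. The 6 fibroblast markers summed to 22.1 to 26.9 CPM in DMSO and 25.1 to 34.0 CPM in LMI070.

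Because the compound is known for exons that end in GA, the ends of the annotated internal exons of the 39 genes were read from the GENCODE 29 transcripts. Of 472 exon ends with at least 20 inclusion reads, 6 (1.27%) ended in GA, in 5 genes, and 1 (0.212%) in AGA. Over all genes 2308 of 136144 such ends (1.70%) were GA and 0.786% were AGA. The last 24 bases of these 6 exons are shown 5′ to 3′ with the final 3 in capitals, on GRCh38.
SNRNP70, 63-nt coding exon, chr19:49098642-49098704, plus strand: gaggtgtacggacctatcaaaAGA
SNRNP200, 100-nt coding exon, chr2:96298603-96298702, minus strand: tgttgcggcagcacaggatgaTGA
SNRNP200, 137-nt coding exon, chr2:96298284-96298420, minus strand: accgagaaggaggatctgatcCGA
PRPF31, 84-nt coding exon, chr19:54121860-54121943, plus strand: ccgtggagatcgaaaacgagcTGA
EFTUD2, 79-nt coding exon, chr17:44885256-44885334, minus strand: acctgttacggtgtatgagatGGA
LUC7L, 205-nt coding exon, chr16:189931-190135, minus strand: ctccttcggtagctgcaaccaGGA

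Reads that skipped any of the 6 were rare with or without the compound. Inclusion reads are the mean of the junctions into and out of an exon. The AGA exon of SNRNP70, which encodes the U1 70K protein, had 11785 inclusion reads against 2 reads that skipped it. In SNRNP200, which encodes the helicase that unwinds U4 from U6, skipping reads numbered 3 beside 3042 for the 100-nt exon and 5 beside 3268 for the 137-nt exon. No read skipped the exon of PRPF31, a protein that binds U4 snRNA, where 3216 reads included it. EFTUD2, the U5 GTPase, had 3 skipping reads beside 6333, and LUC7L had 1 beside 806. The LUC7L exon shares its start with an exon of the main transcript that ends elsewhere (next intron chr16:189340-189967). Its inclusion thus does not measure use of the GA end. The lowest inclusion in any library was 98.8%, for LUC7L in LMI070 16. Mean inclusion was at least 99.7% for each of the 6 exons in both groups.

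The first comparison asked whether the spliced output of the 39 genes changed with the compound. It did not pass the test in any of them. In edgeR's quasi-likelihood test over both lanes, 0 of 37 genes had an adjusted p under 0.05, against 0.133% of all genes tested. DESeq2 called 0 of the 37 as well. An unadjusted p under 0.05 in edgeR's test was found for 8 of the 37, beside 1396 of all 13496 genes. The log2 fold changes of LMI070 over DMSO ran from -0.09 to 0.26, with a median of 0.01, beside a median of 0.00 over all genes. Without the filter on low counts, which adds U2AF1 with its 30 uniquely mapped reads, edgeR called 7 of the listed genes, all higher. That fit called 1.42% of all 21218 genes, so the count of 0 depends on that filter. In bulk RNA, fewer expressing cells and less RNA per cell cannot be told apart.

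Levels of different genes were compared per intron in use, the introns of the main transcript with at least 10% of the CPM of the gene's highest intron. This left out introns in 3 genes (SNRPD2, SNRPD3 and DHX8), a choice made after the data were seen. The Sm proteins form the ring that encloses each spliceosomal snRNA other than U6, and 6 of the 7 Sm genes held the highest places among the 37 genes, with the U1 gene SNRNP70 (51.3 ± 4.06) above the last of them, SNRPG (49.2 ± 3.48). SNRPD2 was at 107 ± 5.21 CPM per intron in DMSO (SD, n = 4) and SNRPB at 99.8 ± 6.60, a pair with overlapping SD ranges. Genes were not tested against each other. SNRPD1 (69.4 ± 4.18) and SNRPD3 (63.7 ± 3.41) followed. SNRPE (55.8 ± 1.98) and SNRPF (54.0 ± 3.73) came next, and the means of these last 2 differed by less than either SD. At the bottom were PRPF3 (7.46 ± 0.0724), SF3A2 (7.01 ± 0.892), LUC7L (7.01 ± 0.333), DHX38 (6.72 ± 0.290) and SF3B4 (6.13 ± 0.374). Genes of 1 complex did not have like levels of spliced reads: within SF3b, SF3B1 was at 36.5 CPM per intron and SF3B4 at 6.13.

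The Sm genes had log2 fold changes from -0.05 to 0.03, none of 7 called. SNRPE, the lowest of them, had 234, 222, 217 and 230 CPM per gene in DMSO 9 to 12 and 205, 233, 240 and 196 in LMI070 13 to 16. Its groups overlapped, with the highest and the lowest library both in LMI070. SNRPF, at the other end, had 170, 173, 149 and 158 CPM in DMSO and 165, 169, 174 and 153 in LMI070.

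None of the 3 genes of U1-specific proteins was called, and their log2 fold changes ran from -0.01 to 0.07. SNRNP70 had 508, 497, 460 and 427 CPM in DMSO and 498, 508, 510 and 464 in LMI070. SNRPC encodes the U1 protein that stabilises the pairing of U1 with the 5′ splice site; it had 210, 209, 229 and 219 CPM in DMSO and 209, 216, 216 and 222 in LMI070. The log2 fold change of SNRPC was -0.01 with a standard error (SE) of 0.04.

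The LUC7 proteins associate with U1 and influence which 5′ splice sites it uses. LUC7L had 71.6, 65.3, 69.1 and 64.7 CPM in DMSO and 70.4, 73.5, 68.0 and 72.3 in LMI070, a log2 fold change of 0.07 (SE 0.05). Only 4.02% of the reads of LUC7L2 lay in introns that belong to it alone, because a read-through gene shares the rest. Counted with the shared introns it had 257, 241, 222 and 246 CPM in DMSO and 235, 244, 248 and 234 in LMI070, a log2 fold change of -0.01 (SE 0.04, adjusted p = 0.969, edgeR). On its own introns its log2 fold change was -0.06 (SE 0.10).

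The helicases and CDC5L, the MYB-related partner of PRPF19, were not called either. DHX15, which takes spent spliceosomes apart, had 443, 436, 442 and 477 CPM in DMSO and 434, 441, 442 and 440 in LMI070. DHX38, which acts before the second step, had 181, 181, 173 and 165 CPM in DMSO and 185, 185, 187 and 180 in LMI070, a log2 fold change of 0.08 (SE 0.04). SF3B1, the SF3b scaffold that contacts the branch point, had 857, 874, 867 and 912 CPM in DMSO and 811, 866, 857 and 826 in LMI070, a log2 fold change of -0.06 (SE 0.04). SNRPB2, a U2 snRNA binding protein, had the lowest log2 fold change of all members, -0.09 (SE 0.05, adjusted p = 0.543, edgeR). It had 144, 147, 137 and 155 CPM in DMSO and 131, 145, 147 and 126 in LMI070. SNRNP40 encodes a U5 protein; it had 185, 205, 205 and 207 CPM in DMSO and 185, 199, 204 and 194 in LMI070.

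The same comparison made in each lane gave other calls. In lane 7, 7 of 37 genes rose with LMI070 (edgeR, adjusted p under 0.05), where 3.49% of all genes tested were called higher. They were SNRPA1, SF3A1, SF3A2, SF3B4, PRPF8, SNRNP200 and PRPF19. In lane 8 none of the 37 was called, beside 0.375% of all genes. There 3 of the 37 had an unadjusted p under 0.05, beside 863 of all 13594 genes. A test of the difference between the lanes called 6 of the 7, each with the larger effect in lane 7; SF3B4 missed with an adjusted p of 0.05001. This was 16.2% of the 37, beside 2.86% of all genes called in either direction and 2.50% called with the larger effect in lane 7. Among the 4374 genes with a mean of at least 50 CPM, 5.62% were called, and 6 of 34 members (17.6%). The lanes carry different run codes in the labels, so the run cannot be told apart from anything else that differed between the lanes.

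**Figure D1:**
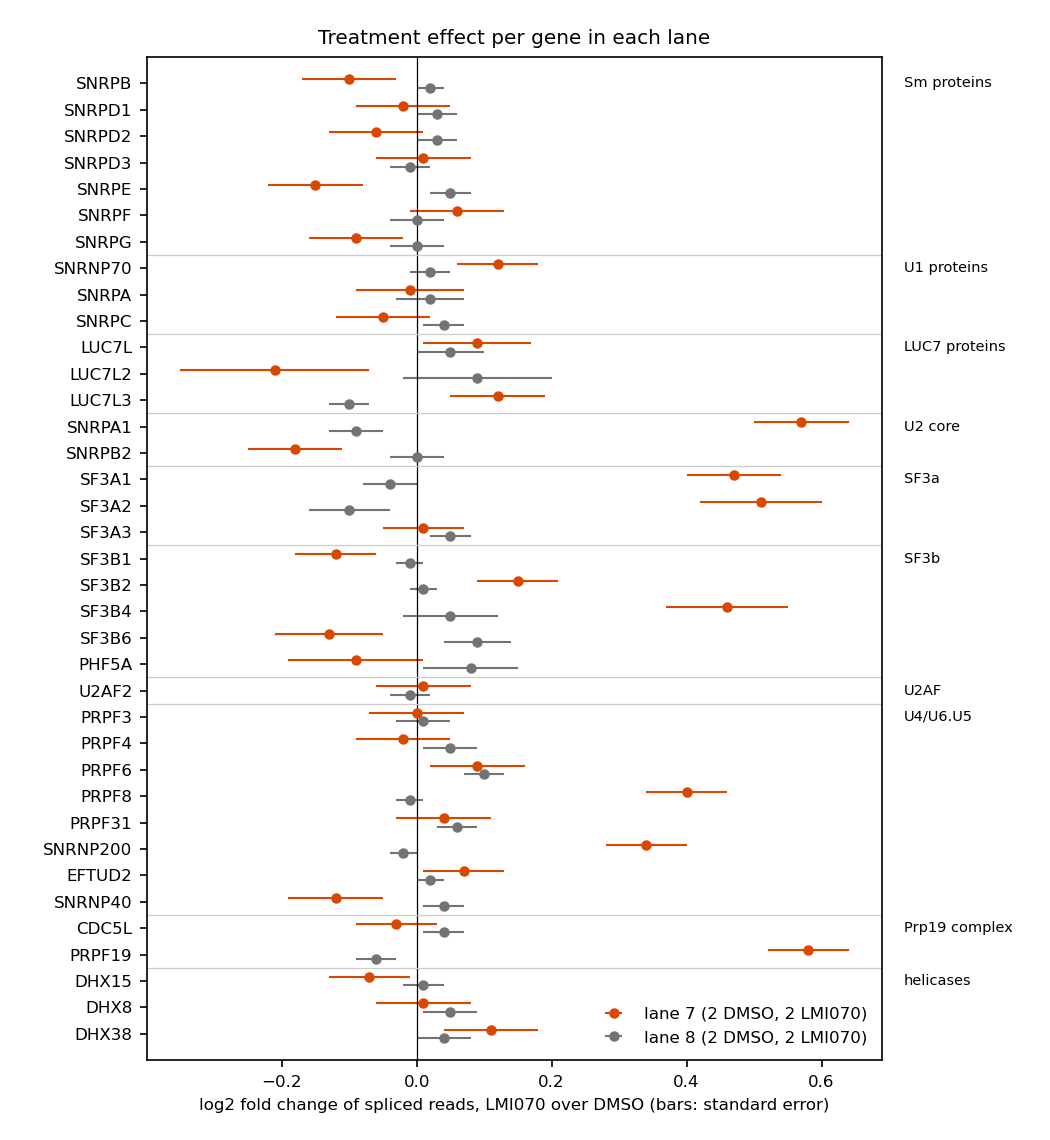
Log2 fold change of spliced reads (LMI070 over DMSO) for each of the 37 genes that could be tested, fitted in lane 7 (orange) and in lane 8 (grey), with bars for the standard error, 2 libraries of each group per lane. In lane 7, 7 genes lie between 0.34 and 0.58, while the lane 8 values lie between -0.10 and 0.10.

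PRPF19 encodes the ubiquitin ligase of the Prp19 complex. In lane 8 it had 228 and 232 CPM in DMSO and 227 and 215 in LMI070; in lane 7 it had 221 and 219 in DMSO and 320 and 335 in LMI070. The 2 treated libraries of lane 7 were thus above the other 6, which lay within 215 to 232. Its log2 fold change was 0.58 (SE 0.06, adjusted p = 1.33e-06, edgeR) in lane 7 and -0.06 (SE 0.03) in lane 8, a difference of 0.63 (SE 0.07, adjusted p = 1.50e-06).

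SNRPA1 encodes a U2 protein that binds U2 snRNA together with the product of SNRPB2. It had 127 and 134 CPM in DMSO and 124 and 120 in LMI070 in lane 8, and 113 and 126 in DMSO and 178 and 175 in LMI070 in lane 7. The lanes differed by 0.66 (SE 0.08, adjusted p = 1.34e-05, edgeR). Its partner SNRPB2 did not share the pattern: the difference between the lanes was -0.19 and did not pass (adjusted p = 0.269, edgeR).

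In SF3a, which links U2 snRNP to the branch point region, 2 of 3 genes had the larger effect in lane 7. SF3A1 had 170 and 175 CPM in DMSO and 165 and 170 in LMI070 in lane 8, against 162 and 150 in DMSO and 213 and 218 in LMI070 in lane 7, a difference between lanes of 0.51 (SE 0.07, adjusted p = 8.01e-05, edgeR). SF3A2 had 62.0 and 61.8 CPM in DMSO and 56.8 and 58.9 in LMI070 in lane 8, against 53.3 and 47.3 in DMSO and 71.2 and 72.2 in LMI070 in lane 7. For SF3A2 the DMSO libraries of lane 7 were also below those of lane 8. SF3A3 had 364 to 383 CPM in DMSO and 370 to 396 in LMI070, and its lanes differed by -0.05 (adjusted p = 0.810, edgeR).

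SF3B4, the SF3b subunit that binds the RNA upstream of the branch point, had 31.5 and 32.9 CPM in DMSO and 31.5 and 35.3 in LMI070 in lane 8. In lane 7 it had 28.8 and 29.4 in DMSO and 40.1 in both LMI070 libraries, a log2 fold change of 0.46 (SE 0.09, adjusted p = 0.00300, edgeR). The other SF3b genes that could be tested, SF3B1, SF3B2, SF3B6 and PHF5A, had lane 7 log2 fold changes from -0.13 to 0.15, none called. SF3B5 has no intron, so spliced reads cannot measure it.

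PRPF8, the core protein that cradles the active site, had 1218 and 1236 CPM in DMSO and 1223 and 1215 in LMI070 in lane 8. In lane 7 it had 1254 and 1214 in DMSO and 1610 and 1645 in LMI070. The difference between lanes was 0.41 (SE 0.05, adjusted p = 2.44e-05, edgeR). SNRNP200, the helicase that works with PRPF8, had 651 and 667 CPM in DMSO and 656 and 645 in LMI070 in lane 8, against 686 and 672 in DMSO and 856 and 853 in LMI070 in lane 7. The other U5 members, EFTUD2 and SNRNP40, and the U4/U6 proteins PRPF3, PRPF4 and PRPF31 had lane 7 log2 fold changes from -0.12 to 0.07, none called. PRPF6, which bridges U5 and U4/U6, was at 0.09 in lane 7 and 0.10 in lane 8.

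**Figure D2:**
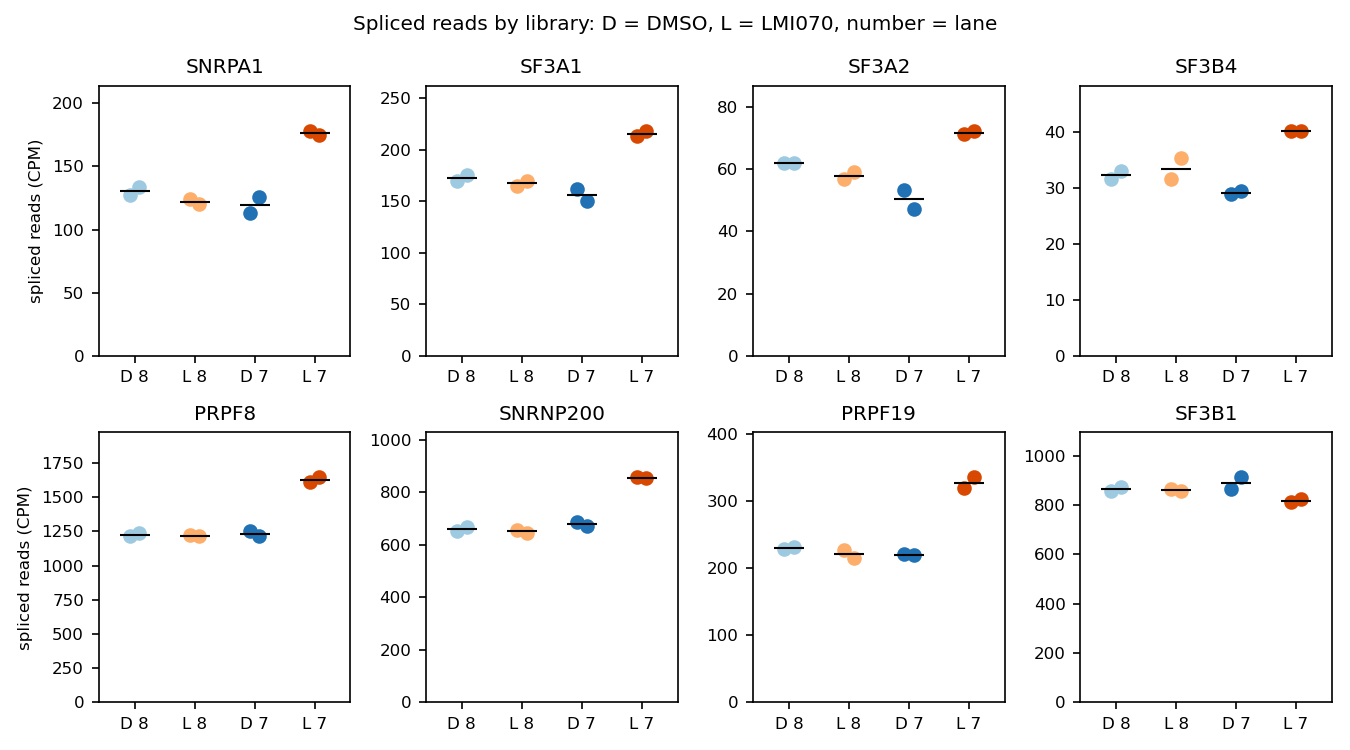
Spliced reads in CPM by library for the 7 genes called in lane 7 and for SF3B1, with 2 points per group and lane and a line at their mean; each vertical axis starts at 0. In all 7 the 2 LMI070 libraries of lane 7 are the highest, while for SF3B1 they are the lowest, at 811 and 826 CPM.

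U2AF1 reads the AG of the 3′ splice site. GRCh38 holds a second copy of the gene, and only 30 of its reads were uniquely mapped beside 34088 multiply mapped ones. With the multiply mapped reads added it had 166 and 170 CPM in DMSO and 167 and 162 in LMI070 in lane 8, and 148 and 156 in DMSO and 217 and 201 in LMI070 in lane 7. Its lanes differed by 0.49 (SE 0.07, adjusted p = 0.000211, edgeR). U2AF2, which binds the polypyrimidine tract as the large subunit of the U2AF dimer, had 425, 433, 453 and 386 CPM in DMSO and 420, 426, 429 and 424 in LMI070, and its lanes differed by 0.01 (adjusted p = 0.964, edgeR).

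The 6 differences between lanes were called under each of the 14 other settings tried, with sizes from 0.33 to 0.73, including the fits that leave out DMSO 12 or LMI070 16, the libraries that stood apart. A fit without 1 library leaves 1 in its arm, which is assumed to vary like the others. Leaving out DMSO 11 raised the number of members called from 6 to 15, 9 with the larger and 6 with the smaller effect in lane 7, as 1608 genes were called in that fit against 386 in all. Leaving out DMSO 12 gave 9 members. Depth was 36131054 reads in LMI070 13 and 21464363 in LMI070 16 (uniquely mapped junction reads); the part of depth in the result was not tested.

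Reads along each transcript were compared intron by intron, to see whether the ratio was even along the gene. In PRPF8 the ratio of LMI070 to DMSO in lane 7 was above 1 at 42 of 42 introns, from 1.15 to 1.48 with a median of 1.32; in lane 8 the median was 0.995. SNRNP200 had ratios from 1.09 to 1.44 at its 44 introns in lane 7 and a median of 0.974 in lane 8. The 15 introns of PRPF19 had ratios from 1.25 to 1.62 in lane 7, and those of SNRPA1 from 1.42 to 1.56 at 8 introns. SF3A1 ran from 1.01 to 1.55 over 15 introns and SF3A2 from 1.23 to 1.66 over 8. The ratio was above 1 at every intron of these genes and of SF3B4. Genes not called in lane 7 differed in this measure. SF3B1 had a ratio above 1 at 1 of its 24 introns in lane 7, with a median of 0.923, and SNRNP40 at 0 of 9. EFTUD2 was above 1 at 23 of 27 introns, and SF3B2 at 21 of 21, with a median of 1.10. A ratio above 1 at every intron thus does not by itself set the called genes apart. Reads in the 3′ over the 5′ introns of PRPF8 were 1.17 to 1.18 in the 4 DMSO libraries. They were 1.17 in the 2 LMI070 libraries of lane 8, and 1.13 and 1.10 in those of lane 7. Other called genes varied in lane 7. PRPF19 had 1.10 and 1.09 in DMSO and 1.11 and 1.10 in LMI070. SF3A1 had 0.810 and 0.835 against 0.837 and 0.861, and SNRNP200 0.899 and 0.869 against 0.875 and 0.858. The part of this measure in the result was not tested.

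**Figure D3:**
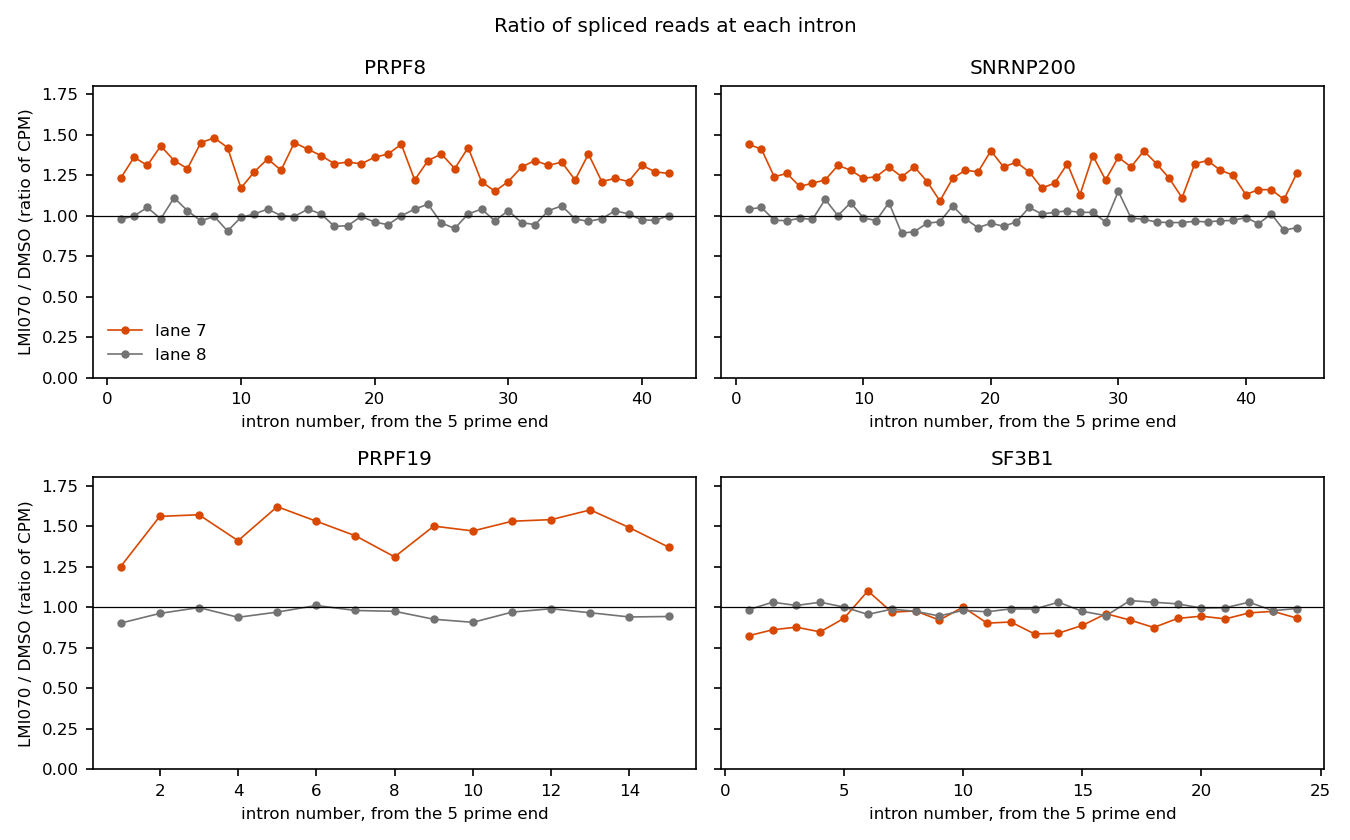
Ratio of LMI070 to DMSO CPM (mean of 2 libraries each) at each intron, numbered from the 5′ end, in lane 7 (orange) and lane 8 (grey). PRPF8, SNRNP200 and PRPF19 lie above 1 at every intron in lane 7 and near 1 in lane 8, and SF3B1 lies mostly below 1 in lane 7. As the text states, SF3B2, which was not called, also had ratios above 1 at every intron in lane 7.

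Beyond the 39, 68 other spliceosome genes were read in the same fits. None of 68 was called by treatment over both lanes, and none in lane 8. Over both lanes 9 had an unadjusted p under 0.05, beside 1396 of all 13496 genes. In lane 7, 5 of 68 rose, beside 3.49% of all genes: SF1, TIAL1, CHERP, SMNDC1 and ZRSR2. SF1, the branch point binding protein that precedes U2, had 142 and 133 CPM in DMSO and 128 and 135 in LMI070 in lane 8, and 127 and 129 against 180 and 172 in lane 7. CHERP, a U2-associated protein, had 37.2 and 33.5 against 32.3 and 33.6 CPM in lane 8, and 32.0 and 28.6 against 52 and 48.5 in lane 7. TIAL1 (TIAR), which helps U1 at U-rich 5′ splice sites, had 63.8 and 63.4 against 65.2 and 60.8 CPM in lane 8, and 55.3 and 63.0 against 82.1 and 80.6 in lane 7. The differences between the lanes of these 3 were called, at 0.53, 0.83 and 0.47 (edgeR, adjusted p = 0.000104, 7.64e-05 and 0.00503), and those of SMNDC1 and ZRSR2 did not pass. These 3 of 68 stand beside 2.86% of all genes called, so the count is read as no result about these genes.

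The next comparison asked whether the compound altered exon inclusion in the 39 genes. No exon was called. The test covered 159 cassette forms in 31 genes, among 38038 forms of all genes, of which 0.363% were called, and 0.145% with a change of at least 10 percentage points. In edgeR's test 3 of the 159 had an unadjusted p under 0.05, with no count over all forms given here. DESeq2 called 0 of the 159 too. Both inclusion junctions were annotated for 70 forms, and 23 of these, in 13 genes, had a mean inclusion between 2% and 98%. Their changes ran from -4.16 to 0.82 percentage points, the lowest in a 416-nt form of LUC7L with only 1 read on one of its junctions. Introns of the 39 genes were nearly all GT-AG, with 1 GC-AG intron each in U2AF2, PRPF31 and SNRNP200 and no AT-AC intron.

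An alternative exon with many reads in an Sm gene was the 23-nt coding exon of SNRPG, shown because its length is no multiple of 3, on the minus strand of GRCh38, with the last 3 bases in capitals.
SNRPG exon, chr2:70289350-70289372: atttatggacaagaagttatCAT
It was included in 88.6%, 89.4%, 88.3% and 91.4% of reads in DMSO 9 to 12 and in 90.0%, 89.5%, 87.7% and 91.4% in LMI070 13 to 16. The groups overlapped, with means of 89.4% ± 1.39 and 89.7% ± 1.51 (SD, n = 4).

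SNRNP70 carries an alternative exon with several 5′ splice sites (55 to 85 nt), part of transcripts annotated as targets of nonsense-mediated decay, the pathway that removes messages with early stop codons. Reads that enter it numbered 616, against 11268 that skip it. They made up 5.37%, 5.01%, 5.40% and 7.25% in DMSO 9 to 12 and 4.28%, 5.21%, 4.93% and 4.99% in LMI070 13 to 16. DMSO 12 was the highest, and the other 7 libraries lay between 4.28% and 5.40%. For the 60-nt form (chr19:49102114-49102173), which the test covered, inclusion was 3.51% ± 0.690 in DMSO and 2.95% ± 0.292 in LMI070 (adjusted p = 0.999, edgeR, n = 4). Only 115 reads left through its own end, so this mean over both junctions also counts reads that enter the other forms.

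LUC7L3 had a 126-nt exon (chr17:50749219-50749344), also in decay-targeted transcripts, at 6.35% ± 1.41 in DMSO and 5.79% ± 0.757 in LMI070, and LUC7L2 a 71-nt exon (chr7:139374401-139374471) at 3.69% ± 0.927 and 4.16% ± 0.841. The LUC7L2 value rests on 15 reads into the exon and 125 out of it. Another 189 reads entered this exon through an unannotated junction (chr7:139371464-139374400) that the value leaves out, so it does not measure all use of the exon. The 96-nt exon of PRPF3 (chr1:150327557-150327652), which lies in no annotated coding sequence, was included in 9.31% to 10.8% of reads in DMSO and 7.42% to 12% in LMI070. Among mostly included exons, the 86-nt exon of DHX8 was at 94.6% ± 1.02 and 92.6% ± 2.62, with LMI070 15 lowest at 89.8%. Others were of 177 nt in LUC7L, 80 nt in SNRPA1, 193 nt in SNRPD3, 119 nt in SF3B6 and 120 nt in PRPF6. With them are listed a 264-nt form of SF3A3 and a 281-nt form of EFTUD2. Together they lay at 95.4% to 98.1% in DMSO and at 95.5% to 97.8% in LMI070. The 264-nt form of SF3A3 is no single exon, because intron 3 of the main transcript (chr1:37987679-37987783) lies inside it. Its value sets the introns on either side against joint skipping of all that lies between them. The 281-nt form of EFTUD2 had 3191 reads at the junction into it but only 3 at the junction out of it. The main transcript shares the junction into it and ends the exon elsewhere (next intron chr17:44886751-44894416). The value is thus mostly that of the main exon, and the 281-nt form itself was rarely read. Each change between the groups in this paragraph had an adjusted p of 0.999 (edgeR).

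**Figure D4:**
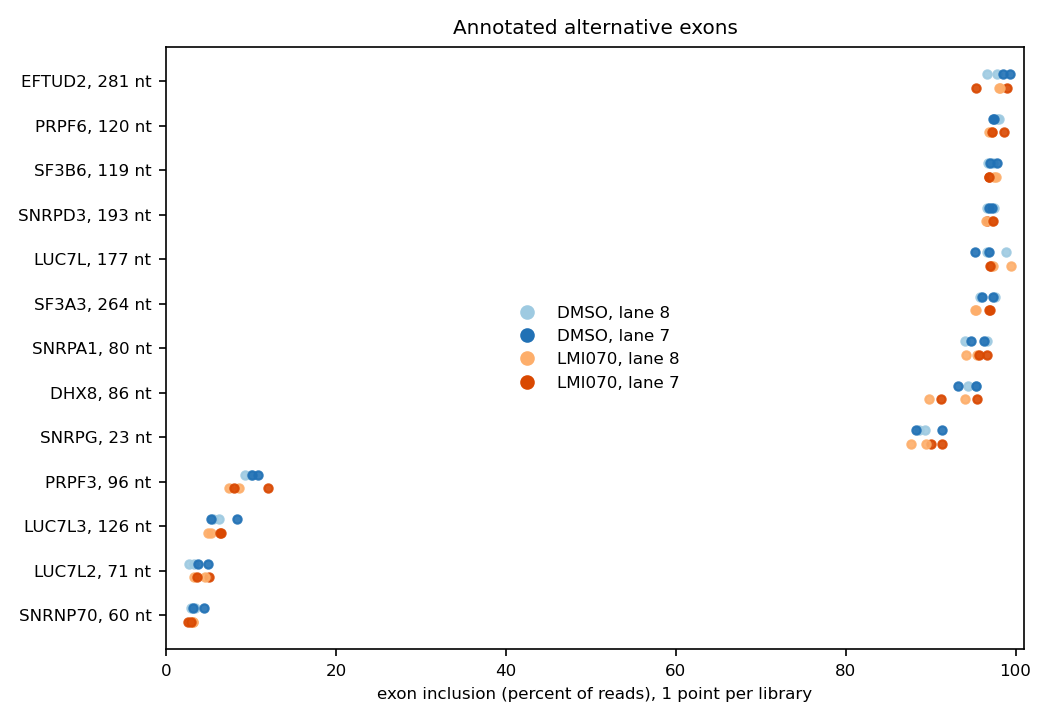
Inclusion in percent of reads for 1 alternative form in each of 13 genes, the one with the most reads among those with annotated junctions. Each library has 1 point (DMSO in blues above, LMI070 in oranges below, darker for lane 7). The SF3A3 form holds an intron, and the EFTUD2 form shares its more read junction with another exon. The points of both treatments overlap for every exon, from 2.54% to 12% for the 4 rarely included exons and from 87.7% upward for the rest.

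U2AF1 has a pair of 67-nt exons of which a transcript normally holds 1. They are shown because the reads that tell them apart are the only isoform measure of this gene, 5′ to 3′ on the minus strand of GRCh38, with capitals at the 23 positions where they differ; 44 positions (65.7%) are identical.
U2AF1 near exon, chr21:43100453-43100519: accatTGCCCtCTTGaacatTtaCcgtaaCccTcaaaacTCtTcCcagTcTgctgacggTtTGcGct
U2AF1 far exon, chr21:43101366-43101432: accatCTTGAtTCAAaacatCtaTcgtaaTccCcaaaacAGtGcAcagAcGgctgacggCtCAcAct
From multiply mapped reads that leave either exon, the near exon, the one closer to the 3′ end of the gene, made up 73.2%, 72.7%, 72.8% and 69.3% in DMSO 9 to 12. In LMI070 13 to 16 its share was 74.6%, 72.8%, 75.8% and 68.5%. The means were 72.0% ± 1.82 and 72.9% ± 3.17 (SD, n = 4), a difference within the spread of the libraries. Reads that joined both exons numbered 117.

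Use of single junctions, measured as a percentage of the reads at their splice sites, gave 1 call. Of 525 junctions of 37 genes, 17 had an unadjusted p under 0.05 in edgeR's test, with no count over all junctions given here. At an adjusted p under 0.05, 1 was called, beside 0.144% of all 129495 junctions. With a change of at least 10 percentage points as well, 0 were called, beside 0.0664%. The called junction was the first intron of LUC7L3 (chr17:50719832-50736959), which is 17128 nt long and joins the first coding exon to the second exon. Its share was 99.7%, 99.7%, 100% and 99.1% in DMSO 9 to 12 and 97.2%, 97.0%, 99.3% and 96.9% in LMI070 13 to 16. LMI070 15 lay among the DMSO libraries and the other 3 treated libraries lay below them. The share fell by 2.01 percentage points, from 99.6% ± 0.374 to 97.6% ± 1.15 (adjusted p = 0.0268, edgeR, n = 4). DESeq2 did not call it (adjusted p = 1.000), nor did either lane alone or the fit with no minimum of reads. The call was also lost without DMSO 9, 10 or 11 or without LMI070 13, 14 or 16, where the change was -1.99, -1.98, -1.89, -1.88, -1.82 and -1.77 points.

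Most of the competing reads in LMI070 belonged to an exon that is absent from GENCODE 29. It is 52 nt long, no multiple of 3, and lies near the start of the intron (chr17:50720829-50720880, plus strand). Its junctions had 24 of the 36 competing reads in LMI070 and 0 of 5 in DMSO. Competing reads at both ends of the intron were added, so a molecule with the exon can count at each end. A molecule that skips it counts once, so the fall in the share of the junction does not measure inclusion of the exon. Reads into the exon numbered 4, 4, 1 and 3 in LMI070 13 to 16, and reads out of it 6, 2, 0 and 4. None was found in any of the 4 DMSO libraries, where 1400 reads skipped it, which allows a share of up to 0.214%, for counting error only. Both lanes held such reads. The exon reached 0.799% ± 0.428 inclusion in LMI070 (SD, n = 4), and as an exon it did not pass the test over all forms (adjusted p = 0.106, edgeR; 0.0597 to 1.00 under the other settings). LUC7L3 as a whole had 241, 224, 211 and 233 CPM in DMSO and 250, 219, 215 and 231 in LMI070, a log2 fold change of 0.01 (SE 0.05).

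**Figure D5:**
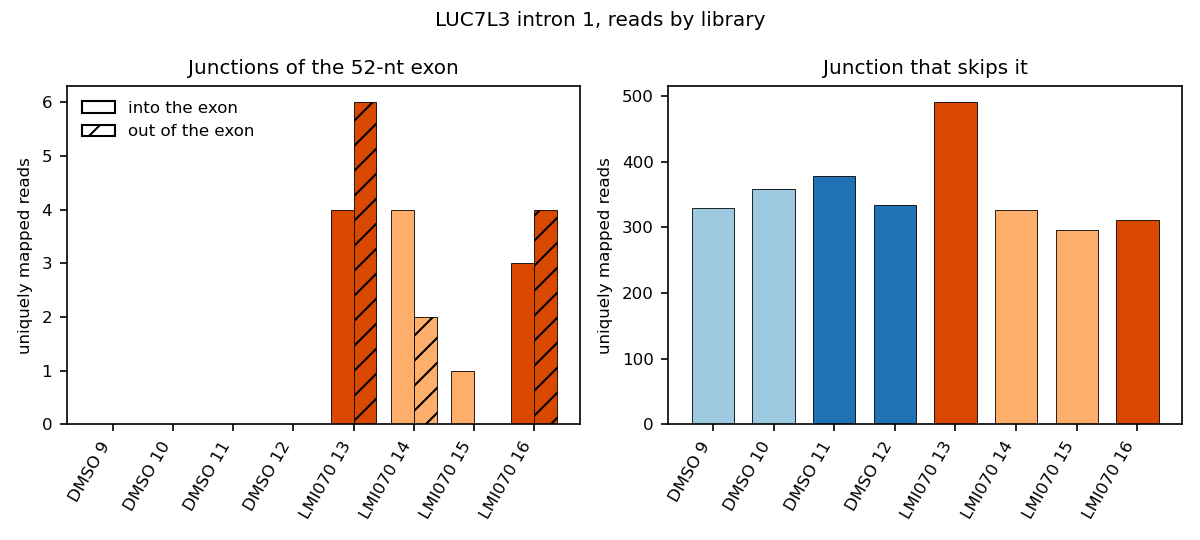
Uniquely mapped reads by library at the first intron of LUC7L3: left, reads into and out of the unannotated 52-nt exon (hatched bars: out of it); right, reads that skip it; blue for DMSO, orange for LMI070, darker for lane 7. The exon has 0 reads in each DMSO library and up to 6 per junction in LMI070, against 296 to 491 skipping reads there.

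The last comparison asked whether transcripts of these genes carried more splices absent from the annotation. Of 36 genes tested with edgeR on the share of their reads at unannotated junctions, 0 were called, beside 0.235% of all genes tested. DESeq2 called 0 of the 36 too. For 1 of them the unadjusted p in edgeR's test was under 0.05, with no count over all genes given here. The 39 genes had 882 unannotated junctions with 5781 reads. At least 20 reads were found at 62 of them, in 27 genes. The 2 junctions of the LUC7L3 exon were the only ones with at least 10 reads in one group and 0 in the other. The share of such junctions over all genes was not counted, so their number is read as no result about these genes. The junction with the most reads, in SNRPD3 (chr22:24557801-24571915), skips its 193-nt exon and had 36, 59, 43 and 43 reads in DMSO 9 to 12 and 75, 48, 45 and 32 in LMI070 13 to 16. In SNRPD1 the most read one (chr18:21622802-21623870) had 114 reads in DMSO and 112 in LMI070. SF3B6, the branch point binding subunit of SF3b, had 74 and 81 reads at the junction that skips its 119-nt exon. SNRPE had 85 and 62 reads at its most read unannotated junction (chr1:203862223-203865040), and SNRNP40 had 60 and 67 (chr1:31261177-31261528). In the other 22 genes with such a junction, the most read one had between 23 and 189 reads.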

How the data were processed

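Per the labels, stranded total RNA libraries depleted of ribosomal RNA were sequenced in 2 lanes. Per the submitters' processing notes, reads were aligned with STAR 2.6.0c to GRCh38. The deposited tables hold raw counts of uniquely and multiply mapped reads per splice junction; alignment settings are not given in the sources used here. Junctions were matched to GENCODE 29 introns, and reads in introns of a single gene (95.855% of the annotated ones) were summed per gene. The test was edgeR 4.0.16 (filterByExpr, TMM, quasi-likelihood, lane as a term; R 4.3.3) with Benjamini-Hochberg adjustment over all genes. Standard errors were derived from the F statistic, and CPM divide each count by its library's TMM-adjusted total. Exons (3 to 500 nt; inclusion is the mean of both junctions), junctions and unannotated reads were tested as paired counts with at least 10 reads (20 for a junction), in the same way. The gene, exon, junction and unannotated share tests were each tested on simulated data. DESeq2 1.42.0 and other settings were alternatives; those for the difference between lanes were added after the data were seen. The genes and lists were chosen with earlier results of these data known. All members are described; those in full passed a test, were at the ends of their role group, or could not be measured by unique reads. Exons were named by total reads, and other spliceosome genes where they passed a test.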

Additional observations from a re-analysis of the deposited data

Results flagged for a closer look

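The effect of the treatment differed between the lanes, by the test of the interaction, in PRPF19 (0.63 on the log2 scale, lane 7 minus lane 8), SNRPA1 (0.66), SF3A2 (0.61), SF3A1 (0.51), PRPF8 (0.41) and SNRNP200 (0.35), and, with multiply mapped reads, in U2AF1 (0.49).

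In 6 of 77 groups of 4 libraries 1 library lay far from the other 3; chance flags about 1 in 20 such groups. SNRNP40 was at 185 CPM in DMSO 9, where the next library was at 205. DHX15 was at 477 CPM in DMSO 12, with the next at 443. Inclusion of the 177-nt exon of LUC7L was 99.5% in LMI070 14 (next 97.4%), and that of the 120-nt exon of PRPF6 was 98.7% in LMI070 13 (next 97.2%). The share of the first LUC7L3 junction was 99.3% in LMI070 15 (next 97.2%). The near exon of U2AF1 had 69.3% in DMSO 12 (next 72.7%).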

How the results depend on the processing

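No paired analysis was possible because the replicate numbers of the groups (9 to 12 and 13 to 16) are not shared. The number of listed genes called by treatment was 0 under all settings except the fit without the filter on low counts (7) and lane 7 alone (7). The number with a difference between lanes was 6 or 7 under other tools, scalings and countings and 6 to 15 without each library in turn. All genes called by treatment numbered 18, 33 with DESeq2, 302 without the filter, 557 in lane 7 and 51 in lane 8. All genes with a difference between lanes numbered 386, and 155 to 1608 without each library. Exon and unannotated share calls stayed at 0 members. The junction call, 1 member, went to 0 with DESeq2, with no minimum of reads, in lane 7 alone and in lane 8 alone, and was 0 to 1 without each library.

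In lane 8 alone the log2 fold changes turned for SNRPE (0.05), SNRPF (-0.00035), SNRPC (0.04), LUC7L2 (0.09), SNRPA1 (-0.09), SNRPB2 (0.0039), SF3A1 (-0.04), SF3A2 (-0.10), U2AF2 (-0.0053), PRPF8 (-0.0091), SNRNP200 (-0.02), SNRNP40 (0.04), PRPF19 (-0.06) and DHX15 (0.0072). U2AF2, at 0.0020, also turned with DESeq2 (-0.00084), relative log expression factors (-0.00084), library totals (-0.00057) and shared introns (-0.0040). Without each library in turn the range was -0.0014 to 0.04 for SNRPF, -0.02 to 0.02 for SNRPC and -0.04 to 0.05 for U2AF2. In percentage points, exon changes turned in lane 8 for EFTUD2 (0.92), SF3B6 (0.42), SNRPA1 (-0.48) and SNRPG (-0.41) and in lane 7 for LUC7L2 (-0.0041), PRPF6 (0.53), SF3A3 (0.26) and SNRPD3 (0.01). Without each library they ranged from -0.90 to 0.36 (EFTUD2), -0.91 to 0.12 (LUC7L3), -0.54 to 0.05 (PRPF6), -0.19 to 0.13 (SF3B6), -0.35 to 0.56 (SNRPA1), -0.26 to 0.05 (SNRPD3) and -0.35 to 0.87 (SNRPG). No exon was called under any setting, and the cause of these changes was not tested. Each lane has 2 libraries per group, and junction reads do not measure unspliced RNA or SF3B5.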
